A study of Mus musculus with 6 samples.

Results

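Lysosomal and endosomal ion channels are described here by 10 genes in primary mouse lung fibroblasts: Hvcn1, Mcoln1, Mcoln2, Mcoln3, Tpcn1, Tpcn2, Clcn3, Clcn5, Clcn7 and Ostm1. They are 10 of the 22180 genes measured. The members were found by symbol, as probe sets (the array's measuring units for a transcript) annotated with exactly 1 gene. Where a gene had several probe sets, the one to use was chosen by the highest mean log2 expression over all 6 arrays, which mattered for Ostm1 alone (means of 11.17 and 6.62). The list was put together with earlier results of these data known, among them the change of Hvcn1.

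The cells came from adult mice of mixed strain that carried UBCCreERT, a tamoxifen-inducible Cre recombinase under the ubiquitin C promoter, and the conditional RSmoM2 allele, which encodes SmoM2, a constitutively active Smoothened. Isolated fibroblasts were divided among wells and kept for 48 h with vehicle (n = 3) or with 4-hydroxytamoxifen (4OHT, n = 3) at 1 µg/ml, the form of tamoxifen that releases CreERT into the nucleus. Every well carried the Cre and the SmoM2 allele, and no well without them received 4OHT, so effects of the drug, of the recombinase and of SmoM2 cannot be told apart. The labels name no separate animals for the wells, so p-values reflect well-to-well spread alone, possibly of a technical kind.

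Over all genes the median log2 level was 7.45 to 7.47 in vehicle and 7.44 to 7.45 in 4OHT arrays, every 4OHT array lying below every vehicle array, while over all probe sets it was 6.70 to 6.72 and 6.72 to 6.78, with every 4OHT array above. The arrays had a Pearson r across genes of at least 0.997 within a group and 0.995 to 0.996 between groups. Precision is limited throughout by having 3 arrays a group. All 10 fibroblast markers checked, among them Col1a1, Pdgfra and Dcn, were measured, at mean log2 expression of 9.73 to 14.12. Gli1, the hedgehog target used to check that the pathway was reached, rose, with a log2 fold change (4OHT minus vehicle) of 0.35 (SE 0.064, adjusted p = 0.0167). Leaving out vehicle replicate 1, 2 or 3 ended that call (adjusted p = 0.0538, 0.0541 and 0.0543), as did fitting the replicate number as a block (0.0560). The mean log2 level of Gli1 was 6.46 with vehicle and 6.81 with 4OHT, below the median level of all genes, where RMA compresses changes.

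As background, lysosomes and endosomes are acidified by a proton pump, the V-ATPase, and the current it creates has to be balanced by other ions. The CLC proteins of these membranes exchange chloride for protons and bring in counter-charge. The TRPML channels, encoded by the Mcoln genes, and the TPC channels, encoded by Tpcn1 and Tpcn2, let calcium or sodium out of the organelle when a phosphoinositide lipid made by the kinase PIKfyve binds to them. They are known for their part in fusion, transport and signalling of lysosomes. Hvcn1 encodes a voltage-gated proton channel best known from white blood cells, where it carries protons across the plasma and phagosome membranes.

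7 of the 10 genes were higher in 4OHT wells at an adjusted p under 0.05, and none was lower. Over all genes 5.38% were called higher and 6.62% lower, or 12% in either direction. Of all calls 44.8% were higher, a share of 30.7% when arrays were centred on their medians over all probe sets and of 52.2% when they were centred over the genes tested. Without Hvcn1, 6 of the other 9 genes rose, by 0.20 to 0.59 on the log2 scale. At an unadjusted p under 0.05, 8 of the 10 were higher and again none was lower in limma's test, beside 12.2% higher and 14.2% lower over all genes. In 8 of the 10 genes all 4OHT wells lay above all vehicle wells, and in 7 of the 9 other than Hvcn1, beside 15% of all genes. The median log2 fold change of the 10 genes was 0.30, or 0.27 without Hvcn1, beside -0.0051 over all genes. In these bulk samples more cells of a type and more RNA per cell cannot be told apart.

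**Figure D1:**
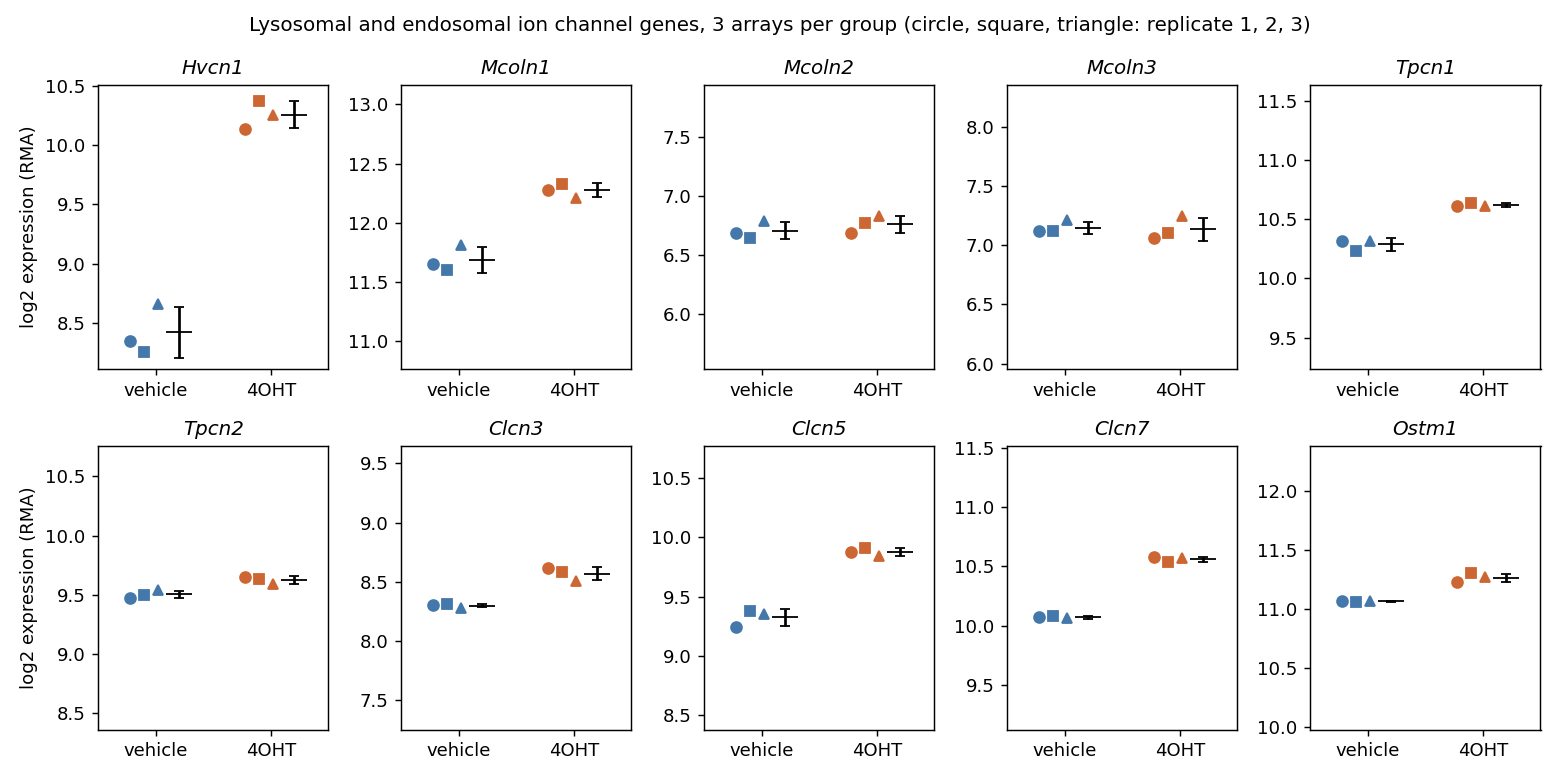
Log2 expression (vertical axis, the same span in each panel) of the 10 channel genes in the 3 vehicle and 3 4OHT wells, with the mean and SD of each group in black. The groups are apart for every gene except Mcoln2 and Mcoln3, and Hvcn1 shows the widest gap, from 8.66 in the highest vehicle well to 10.14 in the lowest 4OHT well.

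Hvcn1 had a log2 expression of 8.35, 8.25 and 8.66 in vehicle replicates 1 to 3 and of 10.14, 10.37 and 10.26 in 4OHT replicates 1 to 3. All 4OHT wells lay above all vehicle wells, and vehicle replicate 3 was the highest of its group. The means were 8.42 ± 0.22 and 10.26 ± 0.11 (SD, n = 3), a 3.57-fold higher level (log2 fold change 1.84, 95% interval 1.56 to 2.11). Only 2 of the 22180 genes had a larger log2 fold change. As the list was drawn up with this change known, it is given as a description. A further probe set that is annotated to Hvcn1 together with another gene was not used.

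Since Hvcn1 is best known from phagocytes and B cells, the markers of those cells are set beside it. Of 18 measured macrophage markers 1 was called higher and 2 were called lower, or 16.7%, beside 12% of all genes. At an unadjusted p under 0.05 in limma's test 2 were higher and 4 lower, beside 12.2% and 14.2% of all genes. The one called higher was Cd68, a glycoprotein of late endosomes and lysosomes (log2 fold change 0.48, adjusted p = 0.0014). C1qb, a chain of the complement component C1q, fell by 0.72 on the log2 scale (adjusted p = 0.0046). The other C1q chains did not share the fall, with C1qa at 0.01 (adjusted p = 0.934) and C1qc at 0.03 (0.899). Lyz2, which encodes lysozyme, fell by 0.24 (adjusted p = 0.0374). That call ended when vehicle replicate 2 (adjusted p = 0.121), vehicle replicate 3 (0.0962) or any 4OHT well (0.0772 to 0.129) was left out. Csf1r, the receptor that sustains macrophages, had log2 values of 7.08 to 7.15 in vehicle and 6.88 to 7.06 in 4OHT wells (adjusted p = 0.173), and Cd14 a log2 fold change of 0.22 (adjusted p = 0.141). Cx3cr1 was at -0.22 (adjusted p = 0.156). The mean log2 level over the macrophage markers was 7.21 to 7.22 in vehicle wells and 7.13 to 7.21 in 4OHT wells.

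None of 5 measured B cell markers or 6 neutrophil markers was called by limma; at an unadjusted p under 0.05 no B cell marker was, and 1 neutrophil marker was lower. The B cell genes nearest to a call, Pax5, Cd22, Cd79a and Ms4a1, had log2 fold changes from -0.06 to 0.09, and the neutrophil genes S100a8, Mpo, Csf3r and S100a9 from -0.24 to -0.03. The mean log2 level of the B cell markers was 5.99 to 6.20 in vehicle and 5.98 to 6.14 in 4OHT wells, and that of the neutrophil markers 5.68 to 5.84 and 5.60 to 5.77. The array table holds no detection calls and no true 0, so a marker cannot be called absent.

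The NADPH oxidase, whose electron current the proton channel offsets in phagocytes, showed no call among 12 measured genes of the complex and its relatives, with 1 higher and 1 lower at an unadjusted p under 0.05 in limma's test (12.2% and 14.2% of all genes). On the log2 scale Nox4 stood 0.12 above vehicle (adjusted p = 0.131), Cyba, which encodes a membrane subunit, at -0.10 (0.162), Nox3 at 0.12 (0.196) and Ncf4 at -0.15 (0.196). Nox4 and Cyba passed when only genes above the median level were tested (adjusted p = 0.0347 and 0.0440) and with trended robust eBayes (0.0227 and 0.0194). The median over these genes was 0.03.

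Only Mcoln1 was called among the TRPML genes. Mcoln1, whose product is the widely expressed TRPML channel of lysosomes and is lost in mucolipidosis type IV, rose 1.51-fold. Its log2 expression was 11.65, 11.60 and 11.81 in the vehicle wells and 12.28, 12.33 and 12.21 in the 4OHT wells, so the lowest 4OHT well lay 0.40 above the highest vehicle well. The log2 fold change was 0.59 (SE 0.068, adjusted p = 0.0029), larger than the SD of 0.11 among vehicle and 0.06 among 4OHT wells.

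The genes of its relatives TRPML2 and TRPML3, which act in recycling and early endosomes, were not called. Mcoln2 had log2 values of 6.69, 6.65 and 6.79 with vehicle and 6.69, 6.77 and 6.83 with 4OHT, overlapping ranges. Its log2 fold change was 0.05 (95% interval -0.09 to 0.19, adjusted p = 0.640). Mcoln3 had 7.12, 7.12 and 7.21 with vehicle and 7.06, 7.10 and 7.25 with 4OHT, and its log2 fold change was -0.01 (95% interval -0.16 to 0.13, adjusted p = 0.919). These intervals leave out a rise as large as that of Mcoln1, but both genes lay below the median level of all genes, where RMA compresses changes.

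Promoters of 8 of the 10 genes were matched in the RefSeq table of the GRCm38.p6 build, 250 bases before to 50 after the start; Hvcn1 and Tpcn1 were not matched. These are 11 promoters in all, since Clcn3, Clcn5 and Clcn7 have 2 each. They were searched on both strands for CACGTG, the E-box bound by many basic helix-loop-helix factors, and for its longer forms TCACGTGA and GTCACGTG, which contain it and resemble the element bound by TFEB and its relatives. CACGTG was in 3 of the 11 promoters, 1 each of Mcoln1, Mcoln2 and Clcn7 (3 of the 8 genes), beside 7.15% of all 32851 promoters. Mcoln1 and Clcn7 each held it at 2 places, and 0.594% of all promoters held it at 2 or more. The stretches shown are those of the 3 genes that hold the hexamer. Capitals mark CACGTG, and each runs 5′ to 3′ on the plus strand. The stretch of Clcn7 ends just before the start, so its hexamer at base 8 of the transcript, within TCACGTGA, is not shown.

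Mcoln1, chr8:3500419-3500499: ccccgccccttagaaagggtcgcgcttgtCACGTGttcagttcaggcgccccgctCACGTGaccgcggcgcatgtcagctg

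Mcoln2, chr3:146150074-146150134: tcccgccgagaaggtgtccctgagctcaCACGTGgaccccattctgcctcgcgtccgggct

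Clcn7, chr17:25133331-25133390: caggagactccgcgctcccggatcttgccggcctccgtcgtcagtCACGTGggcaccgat

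In Mcoln1 the hexamers began 71 and 45 bases before the start, in Mcoln2 72 bases before it and in Clcn7 15 bases before and at base 8 of the transcript. The longer form TCACGTGA was in 2 of the 11 promoters, those of Mcoln1 and Clcn7 that hold CACGTG, beside 0.974% of all promoters. GTCACGTG was in the same 2 promoters, beside 2.25%. The M-box letters TCATGTG, another form read by these factors, were in 1 of the 2 promoters listed for Clcn5 and in 1 of the 2 for Clcn7, beside 3.77% of all promoters. Of the 5 genes called higher that have a listed promoter, Clcn3, Clcn5 and Ostm1 held neither CACGTG nor a longer form. A match of letters is a description and no measured binding site.

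Tpcn1, which encodes a TPC channel of endosomes, rose 1.26-fold. Its log2 expression was 10.32, 10.23 and 10.32 in vehicle wells and 10.61, 10.64 and 10.61 in 4OHT wells. The groups did not overlap, and the log2 fold change of 0.33 (SE 0.046, adjusted p = 0.0060) was larger than the SD of either group, 0.05 and 0.02. Tpcn2, which encodes the TPC channel of late endosomes and lysosomes, had 9.47, 9.50 and 9.54 with vehicle and 9.65, 9.63 and 9.59 with 4OHT. These groups did not overlap either, but the log2 fold change of 0.12 (95% interval 0.01 to 0.22) was not called (adjusted p = 0.144). It passed when only genes above the median level were tested (adjusted p = 0.0395).

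All 3 chloride-proton exchanger genes of the list rose. Clcn5, whose product serves endosomes and is mutated in Dent disease of the kidney, was 1.47-fold higher. Its log2 expression was 9.24, 9.38 and 9.35 with vehicle and 9.88, 9.91 and 9.84 with 4OHT (log2 fold change 0.55, SE 0.052, adjusted p = 0.0014). The lowest 4OHT well lay 0.46 above the highest vehicle well.

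Clcn7, the exchanger gene of lysosomes and of the bone-resorbing border of osteoclasts, was 1.41-fold higher. The wells of a group were close to each other, with 10.07, 10.08 and 10.06 for vehicle and 10.58, 10.54 and 10.57 for 4OHT (log2 fold change 0.49, SE 0.040, adjusted p = 0.00085). Clcn3, whose exchanger sits on endosomes and vesicles, was 1.20-fold higher, from 8.30, 8.31 and 8.28 to 8.62, 8.58 and 8.51. Its log2 fold change was 0.27 (SE 0.046, adjusted p = 0.0133), and the call ended when 4OHT replicate 1 or 2 (adjusted p = 0.0504 and 0.0596) or vehicle replicate 2 (0.0525) was left out.

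Ostm1 encodes the partner subunit that the Clcn7 exchanger needs to be stable, and loss of either gene causes osteopetrosis. It had log2 values of 11.07, 11.06 and 11.07 with vehicle and 11.23, 11.30 and 11.27 with 4OHT, with no overlap. It was 1.15-fold higher (log2 fold change 0.20, SE 0.041, adjusted p = 0.0258), the smallest change among those called here. Leaving out any single array ended the call, with an adjusted p between 0.0561 (4OHT replicate 1 left out) and 0.104 (4OHT replicate 2 left out). It was also lost with arrays centred over all probe sets (adjusted p = 0.0933). The second Ostm1 probe set was 0.26 higher on the log2 scale but did not pass (adjusted p = 0.0680 over all probe sets).

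**Figure D2:**
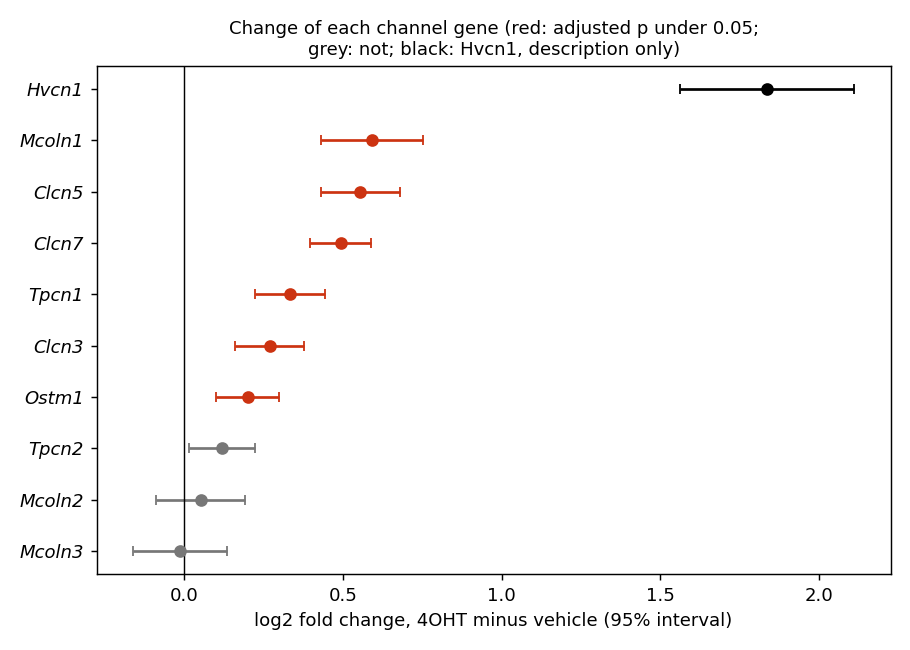
Log2 fold change (4OHT minus vehicle, horizontal axis) of each channel gene with its 95% interval, red where the adjusted p was under 0.05, grey where it was not and black for Hvcn1, given as a description. Hvcn1 stands at 1.84, the 6 other called genes lie between 0.20 and 0.59, and the intervals of Mcoln2 and Mcoln3 span 0.

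Whether relatives changed by different amounts was compared within arrays for 7 pairs, chosen after their values were seen. The log2 fold change of Mcoln1 exceeded that of Mcoln2 by 0.54 and that of Mcoln3 by 0.61, and Tpcn1 exceeded Tpcn2 by 0.21. Clcn5 and Clcn7 exceeded Clcn3 by 0.29 and 0.22, and Clcn7 exceeded its partner Ostm1 by 0.29. In these 6 pairs the within-array differences of the 2 groups did not overlap, and p was 0.1 in an exact permutation test, two-sided, a value that no comparison of 3 with 3 arrays can undercut (0.117 adjusted over the 7 pairs). Clcn5 and Clcn7 differed by 0.06, with overlapping groups (exact p = 0.4, adjusted 0.4).

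Genes around these channels were taken from lists of other proteins of the same membranes, described by counts and medians with no test of a list. Of 27 measured further channels and ion-coupled transporters of endosomes and lysosomes, 10 rose and none fell (median log2 fold change 0.06; at an unadjusted p under 0.05 in limma's test, 13 higher and 1 lower, beside the 12.2% and 14.2% of all genes). Ctns, the cystine exporter of lysosomes, rose 1.57-fold (adjusted p = 0.00093). Slc36a1, a proton-coupled amino acid transporter, rose 1.36-fold (0.0017). P2rx4, an ATP-gated cation channel found on lysosomes, rose 1.35-fold (0.0023), and Clcn6, the CLC exchanger of late endosomes, 1.34-fold (0.0035).

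Other ion channels of these membranes were not called. Tmem175, a lysosomal potassium and proton channel gene, was at -0.08 on the log2 scale (95% interval -0.21 to 0.05). Clcn4, a close relative of Clcn3 and Clcn5, was at 0.06 (95% interval -0.06 to 0.18). These were named after their values were seen.

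Among 14 measured regulators of the TRPML and TPC channels, 3 rose and none fell, so that 21.4% were called, beside 12% of all genes. Their median log2 fold change was 0.0061, beside -0.0051 over all genes. At an unadjusted p under 0.05 in limma's test 4 were higher and 2 lower, beside 12.2% and 14.2% of all genes. Pikfyve, the kinase that makes the activating lipid, rose 1.52-fold, from log2 values of 9.14 to 9.23 with vehicle to 9.62 to 9.90 with 4OHT (adjusted p = 0.0047). Pip4p1, a phosphoinositide phosphatase gene of late endosomes and lysosomes, rose 1.48-fold (0.0016). Vac14, the scaffold of the PIKfyve complex, rose 1.18-fold (0.0237), a call that held only when vehicle replicate 1 was the array left out (otherwise adjusted p = 0.0508 to 0.0924, and 2 regulators called higher). Fig4, its lipid phosphatase, was at 0.17 on the log2 scale (adjusted p = 0.0638), which passed in 5 of the other settings (0.0126 to 0.0478).

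Of 28 measured genes, mostly CLC and TRP relatives at other membranes, none was higher and 3 were lower. The list also held Tpte and Tmem266. Of its genes 10.7% were called, close to the 12% of all genes, and the median log2 fold change was -0.04. At an unadjusted p under 0.05 in limma's test 1 was higher and 5 were lower, beside 12.2% and 14.2% of all genes. Trpc6, a receptor-operated cation channel of the plasma membrane, fell by 1.25 on the log2 scale (adjusted p = 0.00053), and Trpv2 fell by 0.85 (0.00086). Trpc4 fell by 0.27 (0.0345), a call that held only when vehicle replicate 2 was the array left out (otherwise adjusted p = 0.0846 to 0.103, and 2 genes called lower). Trpm7 was at 0.16 (adjusted p = 0.0930). It passed when only genes above the median level were tested (adjusted p = 0.0229) and with trended robust eBayes (0.0131). Only 7 of the 28 genes of this list lay above that level, beside 8 of the 10 channel genes. In the fit limited to such genes 1 relative was higher and 2 were lower. Most of this list is thus dim, where RMA compresses changes, and how far that lowers its count was not tested. The difference between this list and the 10 channel genes was not tested.

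Other parts of the lysosome were set beside the channels for their counts alone, and no difference between the lists was tested. Over all genes 5.38% were called higher and 6.62% lower. Of 24 measured V-ATPase subunit and accessory genes 8 rose and 1 fell, with a median log2 fold change of 0.13. At an unadjusted p under 0.05 in limma's test 14 were higher and 3 lower, beside 12.2% and 14.2% of all genes. Atp6ap2 rose 1.36-fold, Atp6v1b2 1.32-fold, Atp6v1a 1.30-fold and Atp6v1g1 1.25-fold. When vehicle replicate 1 was left out 6 were called higher, and 5 when any other array was. The gene called lower, Atp6v0a4, dropped out when vehicle replicate 1 or 4OHT replicate 1 or 2 was left out. Of 36 measured lysosomal hydrolases and membrane proteins 19 rose and none fell (median 0.19; 25 higher and none lower at an unadjusted p under 0.05 in limma's test). The number higher was 12 and 10 when vehicle replicate 1 or 2 was left out, and 11 and 9 when 4OHT replicate 1 or 2 was. Gla, the alpha-galactosidase lost in Fabry disease, rose 1.57-fold, the lysosomal membrane receptor gene Scarb2 1.50-fold, the protease gene Ctsk 1.43-fold and the sialidase gene Neu1 1.38-fold.

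**Figure D3:**
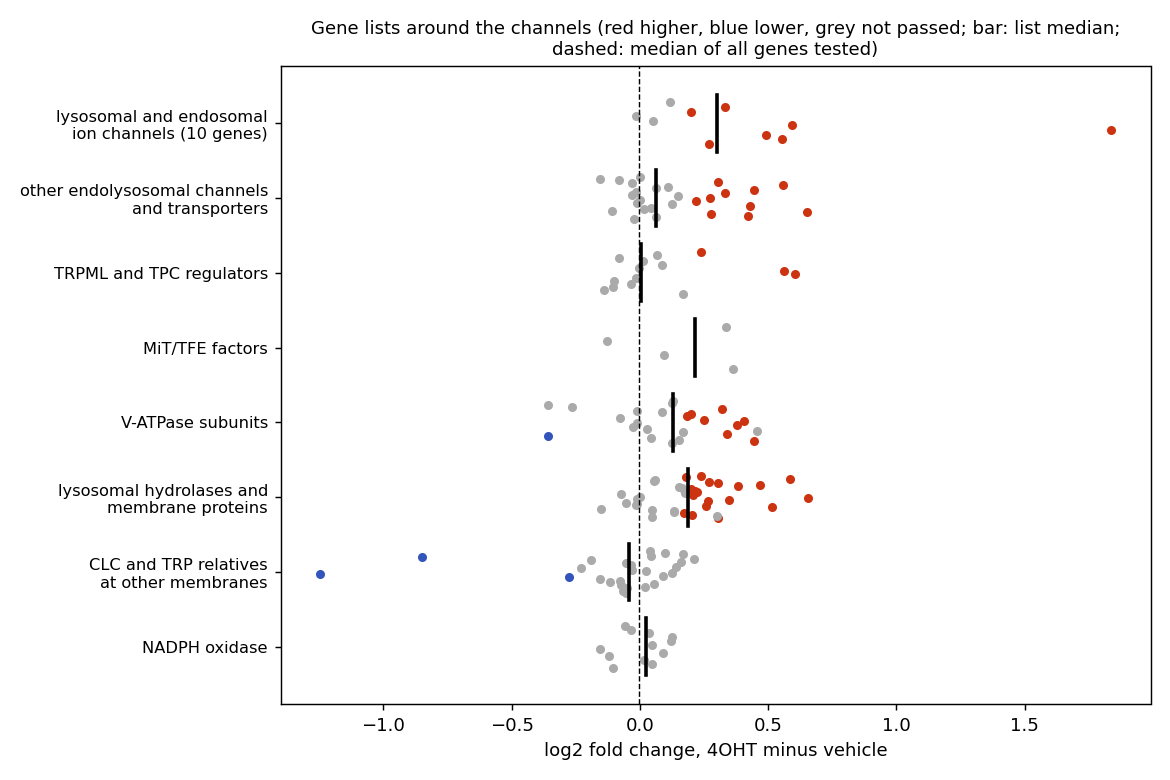
Log2 fold change (horizontal axis) of each gene in 8 lists, red if called higher, blue if called lower and grey otherwise, with the list median as a bar and the median of all genes dashed. The 10 channel genes have a median of 0.30, and the relatives at other membranes reach down to -1.25 with Trpc6.

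The MiT/TFE factors, known to control many lysosomal genes, were not called (none of 4). At an unadjusted p under 0.05 in limma's test 2 were higher and none lower, beside 12.2% and 14.2% of all genes. Mitf had log2 values of 8.61, 8.68 and 8.80 with vehicle and 8.99, 9.24 and 8.94 with 4OHT, without overlap, and a log2 fold change of 0.36 (adjusted p = 0.0511). It passed in several of the settings tried, with adjusted p from 0.0085 to 0.0419. Tfec was at 0.34 on the log2 scale (adjusted p = 0.0812, or 0.0404 with vehicle replicate 1 left out), Tfeb at -0.13 (0.252) and Tfe3 at 0.09 (0.375).

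Melanocytes express Mitf and many of the same organelle genes, and their markers were checked too. 2 of 10 were higher and 1 lower, beside 5.38% and 6.62% of all genes. Mlana, a melanosome protein gene, was 5.66-fold higher (adjusted p = 0.00011), and Pmel was 1.16-fold higher (0.0387), a call that ended whichever array was left out (adjusted p = 0.0566 to 0.117), while Ednrb fell by 0.61 on the log2 scale (0.0036). Sox10 was at 0.09 (adjusted p = 0.231). The enzyme genes that define pigment cells, Tyr, Tyrp1 and Dct, had log2 fold changes of -0.07, -0.18 and -0.02, with adjusted p of 0.813, 0.241 and 0.934. The mean log2 level of the melanocyte markers was 6.55 to 6.64 in vehicle and 6.76 to 6.82 in 4OHT wells. That mean takes in the log2 fold change of 2.50 of Mlana, the largest of the list. The median log2 fold change of the 10 markers was -0.02, with 4 above 0, so the higher mean does not stand for a rise across the list.

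Among markers of the remaining cell types, 1 of 10 fibroblast genes was lower (Col3a1, log2 fold change -0.29, adjusted p = 0.0094). Of 8 epithelial genes 1 was lower (Krt8, -0.33, 0.0083), and of 6 endothelial genes 2 were higher and 2 lower. Over all genes 5.38% were called higher and 6.62% lower. More fibroblast genes passed in other settings, with 4 lower and 1 higher in trended robust eBayes, 3 lower and 1 higher when only genes above the median level were tested, and 2 lower with centring over all probe sets, array weights or a replicate block. These were Tcf21, a transcription factor gene of lung fibroblasts (-0.19, adjusted p = 0.0555, or 0.0050 to 0.0455 where it passed), the proteoglycan gene Lum (-0.27, 0.0849, or 0.0175 to 0.0436), the collagen gene Col1a2 (-0.08, 0.0427 in the trended robust fit) and, on the higher side, the receptor gene Pdgfrb (0.10, 0.174, or 0.0078 and 0.0492). The endothelial genes were Tek (0.42) and Kdr (0.21) on the higher side and Cdh5 (-0.95) and Pecam1 (-0.36) on the lower. The Kdr call ended whichever array was left out (adjusted p = 0.0842 to 0.139), and the Pecam1 call when 4OHT replicate 1 (0.0655) or 2 (0.0741) was. The part of any of these cells in the change of the channel genes was not tested.

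The genes most like Hvcn1 across the 6 arrays, by Pearson's r and leaving out predicted, small RNA and odorant receptor genes, were Dusp18, a phosphatase gene, Lce1a2, Gla, P2rx4 and the kinase gene Stk10, each with r of 0.999. They were 1.54-fold, 1.19-fold, 1.57-fold, 1.35-fold and 1.32-fold higher. The Lce1a2 call ended when 4OHT replicate 2 (adjusted p = 0.0616) or vehicle replicate 1 or 2 (0.0504 and 0.0591) was left out. The arrays fall into 2 groups, so r mostly repeats the difference between the groups, and 786 genes (3.54%) had an r of at least 0.95 with Hvcn1. Of the channel genes, Tpcn1 had an r of 0.99 with Hvcn1, Mcoln1 0.99, Ostm1 0.99, Clcn7 0.98, Clcn5 0.98, Clcn3 0.95, Tpcn2 0.92, Mcoln2 0.52 and Mcoln3 -0.03.

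**Figure D4:**
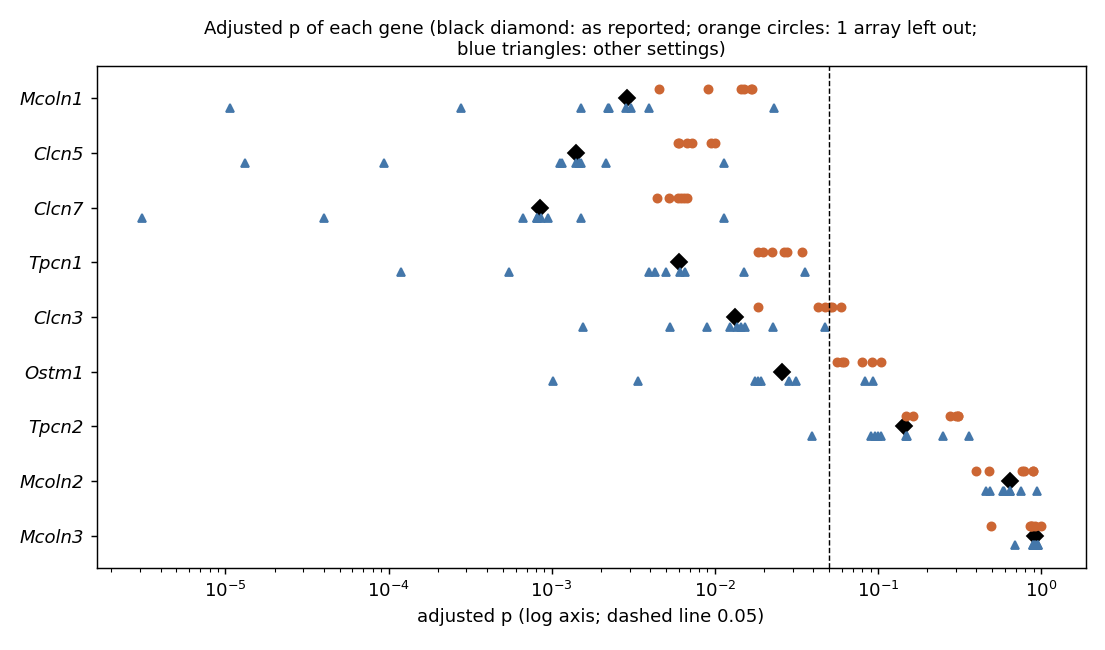
Adjusted p of the 9 channel genes other than Hvcn1 (horizontal log axis) as reported (black diamonds), with 1 array left out (orange circles) and under other settings (blue triangles), with a dashed line at 0.05. Mcoln1, Clcn5, Clcn7 and Tpcn1 stay below the line in every setting plotted, Clcn3, Ostm1 and Tpcn2 have values on both sides, and Mcoln2 and Mcoln3 stay above it.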

How the data were processed

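RNA of 6 wells was measured on single-colour arrays after labelling primed on the poly(A) tail, per the labels' protocols. The authors deposited log2 values per probe set; of tools, oligo, RMA and limma are listed without versions, per the submitters' processing notes. RMA corrects background, equalizes array distributions and summarizes probes, so a shift of all genes would be removed and changes of dim probe sets are compressed. No source used here gives the files' genome build.

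Of 41345 probe sets, 23521 had 1 symbol, 1814 several and 16010 none in the platform annotation. The probe set with the highest mean stood for a gene, leaving 22180 genes, with no filter on dim genes. Groups were compared with limma 3.58.1 in R 4.3.3 (lmFit, eBayes, two-sided, 6.70 degrees of freedom), and p-values were adjusted over all genes by Benjamini-Hochberg; genes under 0.05 were called. Folds are computed from these log2 differences. The named genes were the 10 members, up to 4 genes of smallest p from each list, the 5 genes most like Hvcn1, and Gli1. Some further genes of the lists are given beside these. Members and lists were chosen with earlier results of these data known. Of the list symbols 22 were not measured. No scan dates or batches are in the labels. On simulated data with 200 changed genes among 22180, the fit recovered 5.97% of genes changed 1.2-fold, 52.2% at 1.5-fold and 90.9% at 2-fold, with 1.98% false calls. In the data themselves 12% of genes were called, a larger share than was changed in the simulation. The adjusted p depends on that share, so these rates do not give the recovery of the fit here.

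Alternatives were a replicate block, centring, quantile normalization again, only genes above the median level, probe-set averages, all probe sets, trended robust eBayes, array weights, a threshold of 0.01 and leaving out each array. Centring over the genes tested was added after seeing the data.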

Additional observations from a re-analysis of the deposited data

How the results depend on the processing

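Mcoln1, Tpcn1, Clcn5 and Clcn7 passed in the same direction in all alternatives run, Clcn3 in 12 of 15 and Ostm1 in 7 of 15, counting fits at the 0.05 threshold. At 0.01 the first 4 passed and Clcn3 and Ostm1 did not. The log2 fold change of Hvcn1, a description only, lay between 1.75 and 1.96. The counts of members below include it. Between 5 and 6 members were higher when 1 array was left out, and none was lower under any setting. Mcoln3, not called, turned positive with quantile normalization again (log2 fold change 0.0066), with centring over the genes tested (0.0075) and without some arrays (-0.068 to 0.025). S100a9, also not called, turned to 0.064 with array weights and lay between -0.18 and 0.093 without single arrays; Cd79a lay between -0.11 and 0.064 and Ms4a1 between -0.13 and 0.035.

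The counts over all genes moved more. With the replicate number as a block 648 genes were higher and 920 lower, and 6 members were higher, Ostm1 no longer passing (adjusted p = 0.0829); of all genes named, 9 lost and 1 gained a call. Wells of the same replicate number deviated from their group means with r of 0.06, -0.02 and 0.04 for replicates 1 to 3. Pairs of different number had r from -0.08 to 0.03. The pair of replicate 2 lay within that range and the other same-number pairs above it, so not every well matched its own number best. With 3 arrays a group these values cannot decide whether the numbers mark a pairing. Centring over all probe sets gave 775 higher, and the trended robust fit 1828 higher and 2295 lower. At an adjusted p under 0.01, 395 were higher and 615 lower. Without single arrays 486 to 986 genes were higher and 734 to 1340 lower. The causes were not tested, except that a stricter threshold can only leave fewer calls. Leaving out an array can also add a call, as for Tfec without vehicle replicate 1 (adjusted p = 0.0404 in limma's test). Mcoln2 and Mcoln3 lay below the median level and were not tested in the fit limited to brighter genes, where 8 members were tested and all 8 passed. Signal over background was not used, so how far dimness limits Mcoln2 and Mcoln3 is not known.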
